A study of Rattus norvegicus with 6 samples.

Results

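The MYC network of transcription factors was examined at the RNA level in vascular smooth muscle cells of the rat, grown in culture. Its 10 members here were named by gene symbol: Myc, Max, Mxd1, Mxd3, Mxd4, Mxi1, Mnt, Mlx, Mga and Mlxip, of 18631 symbols in the deposited tables. All 10 were found and all 10 passed the filter on low counts, which left 13423 genes. The list was chosen by gene family after the measured fold changes of this same comparison, above all the rise of Myc, were known, so the differences of the members between the groups are given as a description and support no claim.

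The study, whose title concerns the long noncoding RNA MIAT and the helicase DHX9 in thickening of the vein wall, compared 2 groups of 3 libraries each. The cells of the MIAT knockdown group, titled KD_M, received small interfering RNAs and antisense oligonucleotides together at 50 nM for 72 h. The Scr control group has a wild-type genotype label. The labels attach the knockdown text to every library, so what the control cells received is not stated, and neither are the animals of origin. Both groups are polyadenylated RNA of the same cell type, and Miat itself was not analysed here. Whether each library is a culture of its own is not stated, and a p-value here covers the spread among these libraries alone, which could be technical.

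Total counts were 18173111 to 18598394 per library with MIAT knockdown and 17793811 to 20121161 in the controls. The summed level of 8 smooth muscle markers was 4307 to 6175 FPKM in knockdown libraries and 4640 to 5776 FPKM in controls. It was led by Tagln (means of 2958 FPKM with knockdown and 2803 FPKM in controls) and Acta2 (1705 and 1869 FPKM). Myh11 was lower (24.3 and 30.8 FPKM), as was Myocd (1.04 and 1.13 FPKM), and Des had at most 13 counts in any library. FPKM set a count against the length of its gene and the depth of its library. The summed level of 7 endothelial markers was 1.11 to 1.35 FPKM with knockdown and 1.13 to 2.03 FPKM in controls. The summed level of 5 leukocyte markers was 4.23 to 7.54 FPKM with knockdown and 4.58 to 12.2 FPKM in controls, led by Cd68 at a mean of 3.50 FPKM with knockdown and 5.91 FPKM in controls, while Ptprc reached at most 1 count. The summed level of 6 fibroblast and adventitia markers was 200.0 to 261 FPKM with knockdown and 286 to 335 FPKM in controls, led by Lum and Pdgfra. The part of these markers in the results was not tested. In RNA from whole cultures, fewer cells of a type and less RNA per cell cannot be told apart.

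MYC binds DNA only as a dimer with MAX, and the pair activates genes of growth, ribosome production and cell division through E-box sequences, the canonical one being CACGTG. MXD1, MXD3, MXD4, MXI1 and MNT also pair with MAX on E-boxes and repress by recruiting SIN3 corepressors, while MGA joins MAX in a Polycomb-type complex called PRC1.6. MLX is a MAX-like partner that pairs with some MXD proteins, with MNT and with the nutrient-responsive factor MLXIP, also called MondoA. In vascular smooth muscle, MYC is known as an early gene of growth factor stimulation.

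Network members are themselves possible E-box genes, so their promoters were searched for CACGTG, which reads the same on both strands. RefSeq promoter windows of 300 bases (250 before and 50 after the start, GRCr8 build) were matched for 9 members, all but Myc. Of these, 4 held the motif: Max, Mxd4, Mnt and Mlx. The share was 44.4% of 9 members, against 7.08% of 27457 genes in the promoter table and 9.91% of the 10335 tested genes with a window. The motif holds a CG, and member windows were richer in such bases. Their mean GC content was 66.0%, against 53.1% in all genes of the promoter table and 60.7% in tested genes. The mean number of CG per window was 27.4, against 12.4 and 21.2. The part of base content in the share was not tested. The windows of Mxd1, Mxd3, Mxi1, Mga and Mlxip had no match. The 4 stretches below are shown 5′ to 3′ on the strand of the gene with the E-box in capitals; they lie at chr6:101395273-101395368 on the minus strand for Max, and on the plus strand at chr14:80786539-80786634 for Mxd4, chr10:60197791-60197886 for Mnt and chr10:86519771-86519866 for Mlx.
Max: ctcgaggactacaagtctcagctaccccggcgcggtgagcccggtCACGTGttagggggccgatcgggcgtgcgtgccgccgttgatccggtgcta
Mxd4: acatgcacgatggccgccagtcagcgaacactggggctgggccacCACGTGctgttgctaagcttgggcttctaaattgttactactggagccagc
Mnt: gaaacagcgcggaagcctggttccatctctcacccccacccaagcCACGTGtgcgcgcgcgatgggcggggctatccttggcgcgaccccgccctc
Mlx: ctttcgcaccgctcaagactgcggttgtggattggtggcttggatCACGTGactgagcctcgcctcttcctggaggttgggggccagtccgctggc
The motif began 33 bases before the annotated start in Max, 70 in Mlx, 123 in Mnt and 197 in Mxd4. The 4 genes did not share a direction of change: Mxd4 was lower with knockdown, while Max, Mnt and Mlx had small positive differences, as given below.

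Myc was the most abundant member in the knockdown libraries and ranked 3 of 10 in the control libraries. It stood at 60.0, 43.4 and 47.6 FPKM in knockdown libraries 1 to 3, against 23.0, 21.4 and 18.7 FPKM in control libraries 1 to 3. The groups did not overlap, and the lowest knockdown library lay above the highest control library by more than the range of the controls. Knockdown library 1 was the highest of the 6. The mean was 50.3 ± 8.60 FPKM with knockdown and 21.0 ± 2.18 FPKM in controls (SD, n = 3 each). In CPM (counts scaled by library total and TMM factor, which sets the libraries to a common level for most genes), the fitted log2 fold change was 1.15 (SE 0.12, the standard error of the fit). With the library number as a block it was 1.14 (SE 0.075), and 109 of the 13423 tested genes had a larger rise.

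**Figure D1:**
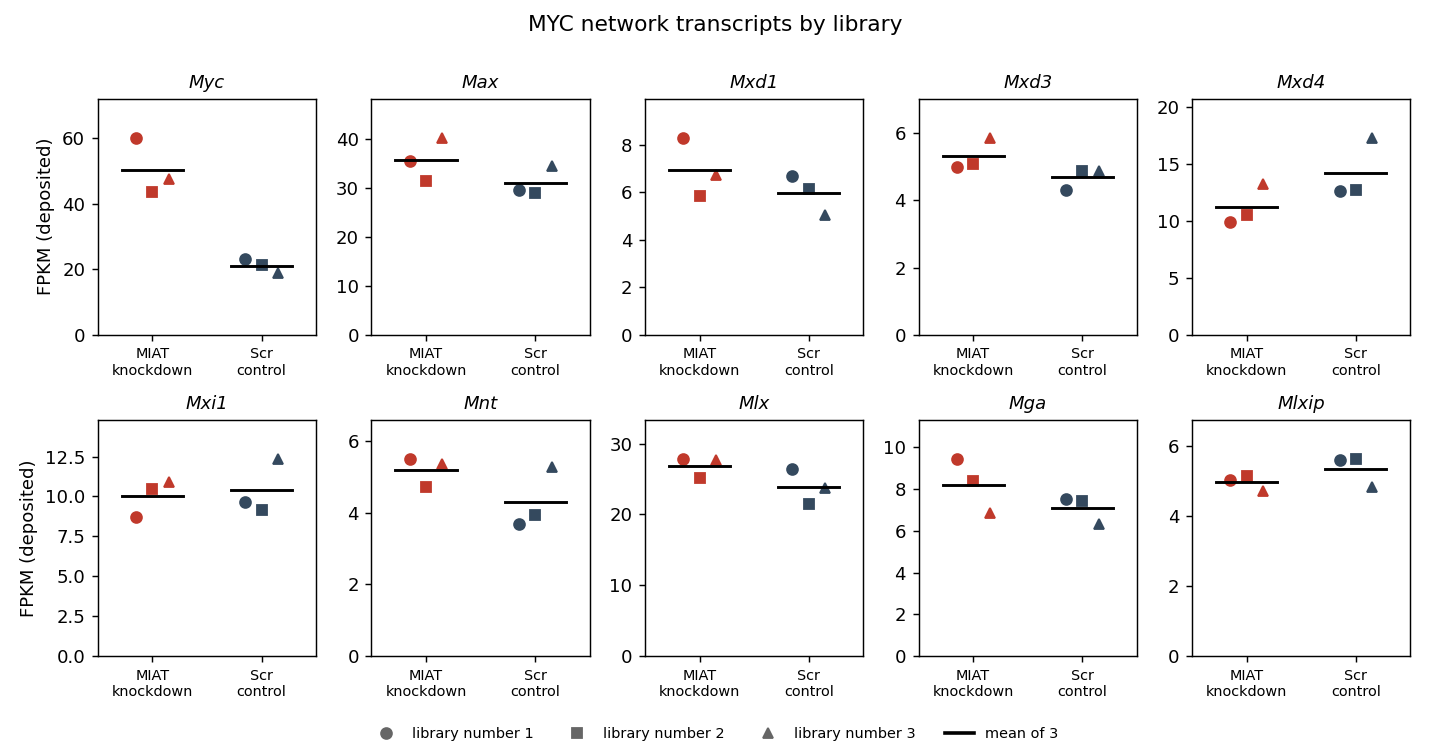
Deposited FPKM of the 10 MYC network genes in each library, with MIAT knockdown left and Scr control right in every panel; symbols give the library number, black bars the mean of 3 libraries, and each panel has its own axis from 0. Myc lies at 43.4 to 60.0 FPKM with knockdown against 18.7 to 23.0 FPKM in controls, while the ranges of most other members overlap.

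Max, the obligate partner of MYC, had a difference no larger than the spread between its libraries. It was at 35.6, 31.4 and 40.3 FPKM in knockdown libraries 1 to 3, against 29.5, 29.0 and 34.6 FPKM in control libraries 1 to 3. Knockdown library 2 lay below control library 3, so the groups overlapped, and library 3 was the highest of each group. The log2 fold change with the block was 0.09 (SE 0.063), and within pairs 1, 2 and 3 the log2 difference in CPM was 0.18, 0.04 and 0.06. Without knockdown library 3 the unblocked log2 fold change was -0.00082, and without control library 3 it was 0.21.

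The transcript of Myc therefore stood above that of Max in each knockdown library and below it in each control library. The ratio of Myc to Max in FPKM was 1.68, 1.38 and 1.18 in knockdown libraries 1 to 3, against 0.779, 0.739 and 0.541 in control libraries 1 to 3. The mean ratio was 1.42 ± 0.25 with knockdown and 0.686 ± 0.13 in controls (SD, n = 3 each). A ratio of RNA levels within a library does not depend on the scaling of that library, but it says nothing of protein levels, which were not measured.

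Mxd4 was the antagonist with the largest difference, in the direction opposite to that of Myc. MXD4 is a MAX-binding repressor of the MXD family. Its level was 9.90, 10.5 and 13.2 FPKM in knockdown libraries 1 to 3, against 12.6, 12.7 and 17.2 FPKM in control libraries 1 to 3. Each knockdown library was below the control library of the same number, although knockdown library 3 exceeded control libraries 1 and 2. The log2 fold change was -0.45 (SE 0.18) without the block, and -0.44 (SE 0.066) with it. Within pairs 1, 2 and 3 the log2 difference in CPM was -0.43, -0.34 and -0.54. Control library 3 held the highest value, and without it the unblocked log2 fold change was -0.25.

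Mxi1 and Mxd1, repressors of the same family, had small differences of opposite sign, both within the spread. Mxi1 was at 8.73, 10.5 and 10.9 FPKM in knockdown libraries 1 to 3, against 9.66, 9.14 and 12.3 FPKM in control libraries 1 to 3, and the groups overlapped. Its log2 difference within pairs was -0.23, 0.12 and -0.33, and its block log2 fold change -0.15 (SE 0.0965). Mxd1 was at 8.28, 5.82 and 6.74 FPKM in knockdown libraries 1 to 3, against 6.66, 6.12 and 5.06 FPKM in control libraries 1 to 3. Its log2 difference was 0.22, -0.14 and 0.25 within pairs, so it was higher with knockdown in pairs 1 and 3 but not in pair 2, and the block log2 fold change was 0.11 (SE 0.11).

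Mxd3, which in mice is expressed in S phase of dividing progenitors, was the member with the fewest reads, at 90 to 108 counts in knockdown libraries and 76 to 97 counts in controls. In deposited FPKM its groups did not overlap, at 5.0 to 5.86 with knockdown against 4.31 to 4.89 in controls. In TMM-scaled CPM they did overlap, at 4.68 to 5.60 against 4.30 to 5.19, and the block log2 fold change was 0.07 (SE 0.17). With a correction for gene length it was -0.04.

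Mnt and Mga, the large MAX partners, had overlapping groups. Mnt was at 5.49, 4.73 and 5.38 FPKM in knockdown libraries 1 to 3, against 3.68, 3.93 and 5.29 FPKM in control libraries 1 to 3. Control library 3 lay within the knockdown range, whereas controls 1 and 2 lay below it. The block log2 fold change of Mnt was 0.18 (SE 0.11), with log2 differences of 0.48, 0.19 and -0.13 within pairs 1, 2 and 3. Without control library 3 the unblocked value was 0.37, against 0.16 with all libraries. Mga ranged from 6.84 to 9.41 FPKM with knockdown and from 6.33 to 7.50 FPKM in controls, with a block log2 fold change of 0.10 (SE 0.066). With the correction for gene length that of Mga was 0.30, and the deposited tables imply a length of 12964 bases for it, the longest of the 10 members.

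Mlx and Mlxip form the branch that senses glucose-derived metabolites. Mlx ranged from 25.1 to 27.8 FPKM with knockdown and from 21.4 to 26.4 FPKM in controls, with a block log2 fold change of 0.07 (SE 0.062). RefSeq places Mlx over part of Psmc3ip, a recombination gene at 12.7 ± 1.39 FPKM with knockdown and 11.1 ± 1.18 FPKM in controls, and whether the counting used strand is not given, so reads of the shared stretch cannot be assigned. The same limit holds for Mlxip, Mxd1 and Mxi1, which overlap LOC120096088, LOC134486607 and LOC108349710. None of these LOC genes is in the count table, so their levels are not known. Mlxip was at 48.5, 51.5 and 46.6 CPM in knockdown libraries 1 to 3, against 57.6, 59.2 and 53.1 CPM in control libraries 1 to 3. On this scale the groups did not overlap, whereas in deposited FPKM they did, at 4.71 to 5.13 with knockdown against 4.81 to 5.61 in controls. The block log2 fold change of Mlxip was -0.21 (SE 0.062), and -0.11 with total counts as scaling.

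**Figure D2:**
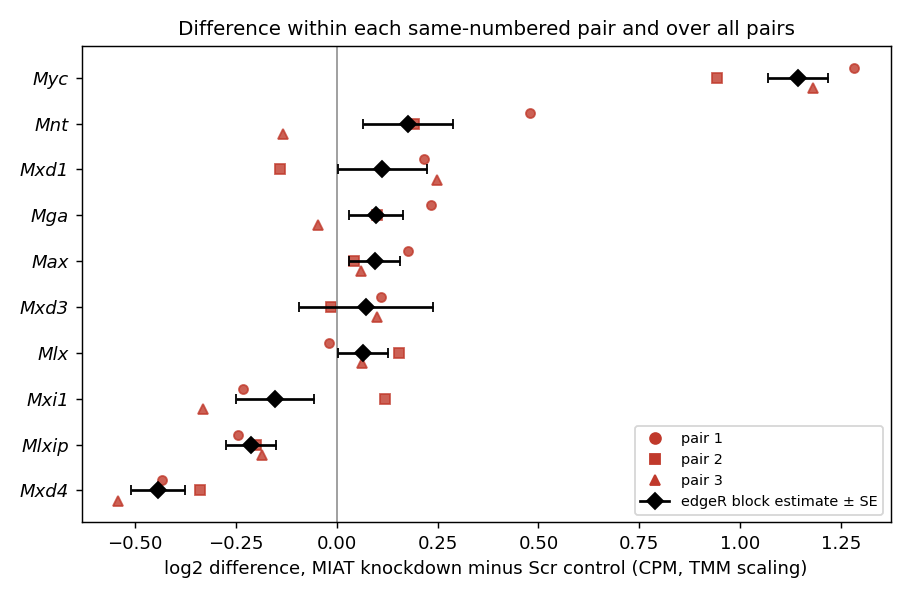
Log2 difference in TMM-scaled CPM, MIAT knockdown minus Scr control, for each same-numbered pair (red symbols) and as fitted over the 3 pairs by edgeR with the library number as a block (black diamonds, bars are the standard error); genes are ordered by the fitted value. Myc lies at 0.94 to 1.28 in its pairs and Mxd4 at -0.54 to -0.34, and most others lie near 0.

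For the threshold of an adjusted p under 0.05, the fit of edgeR's quasi-likelihood test without the block called 0 of 10 members and 0 of 13423 genes, with 3 members and 2576 genes at an unadjusted p under 0.05. With the block, 1 member rose (Myc), 2 fell (Mxd4 and Mlxip) and 7 did not pass, beside 21.6% of all tested genes called. The share of all genes higher was 10.5% and the share lower 11.1%. In this text, rose and fell refer to the block fit. A call or count given below for DESeq2 is that of its fit with the block, unless stated otherwise. Without the block edgeR called 0 genes on each of the lists given below. With the block and total counts, 2822 of all tested genes were higher and 819 lower, and with the length correction 1280 and 1037. Leaving out pair 1 gave 530 higher and 665 lower, pair 2 348 and 388, and pair 3 1924 and 2200. List counts given below for those settings stand beside these. Without the block DESeq2 called Myc alone, beside 5.21% of genes (2.73% higher, 2.47% lower), and with the block it called Myc and Mxd4, beside 11.8% of genes (4.92% higher, 6.92% lower). Because the same comparison chose the list, nothing is read from these counts. Myc and Mxd4 were called in 7 of 7 fits with the block, whereas Mlxip was called in 2 and Mga in 3 of 7. The call of Mlxip ended without pair 1 (log2 fold change -0.19), without pair 2 (-0.22), in DESeq2 (-0.22), with total counts (-0.11) and with the length correction (-0.05). Without pair 3 Mnt (0.34) and Mga (0.17) also passed.

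The groups did not overlap in CPM for 2 of the 10 members, Myc (above) and Mlxip (below), beside 26.0% of all tested genes (14.2% above, 11.8% below). The differences had the same sign in all 3 pairs for 4 members, Myc, Max, Mxd4 and Mlxip, beside 56.5% of all tested genes. The median absolute log2 fold change with the block was 0.13 over the 10 members and 0.18 over all tested genes, which describes the list and is no test.

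Levels of the members relative to each other can be compared in FPKM. In control libraries the order of the means was Max (31.0), Mlx (23.9), Myc (21.0), Mxd4 (14.2), Mxi1 (10.4), Mga (7.09), Mxd1 (5.94), Mlxip (5.33), Mxd3 (4.69) and Mnt (4.30). The ranges of Mlx and Myc overlapped in controls, as did those of each neighbouring pair from Mga to Mnt in that order, so the order of such neighbours lies within the spread. In knockdown libraries Myc (50.3) came before Max (35.8) and Mlx (26.9), and their ranges did not overlap. Mxd4 ranked 4 in each of the 6 libraries.

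In deposited FPKM, the summed level of the antagonists hardly differed between the groups. Compared with TMM scaling, deposited FPKM place the knockdown libraries higher, by 0.107 on the log2 scale for the median gene. Mxd1, Mxd3, Mxd4, Mxi1, Mnt and Mga together stood at 46.8, 45.0 and 48.9 FPKM in knockdown libraries 1 to 3, against 44.4, 44.2 and 51.1 FPKM in control libraries 1 to 3. The mean was 46.9 ± 1.96 FPKM with knockdown and 46.5 ± 3.94 FPKM in controls (SD, n = 3 each). Relative to Myc the sum was 0.781, 1.04 and 1.03 in knockdown libraries 1 to 3, against 1.93, 2.06 and 2.73 in control libraries 1 to 3. These ratios did not overlap, and they follow from the level of Myc. Relative to Max the sum was 1.21 to 1.43 with knockdown and 1.48 to 1.53 in controls, a smaller difference without overlap. Myc made up 28.2% to 34.2% of the summed FPKM of the 10 members with knockdown and 14.1% to 17.9% in controls.

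**Figure D3:**
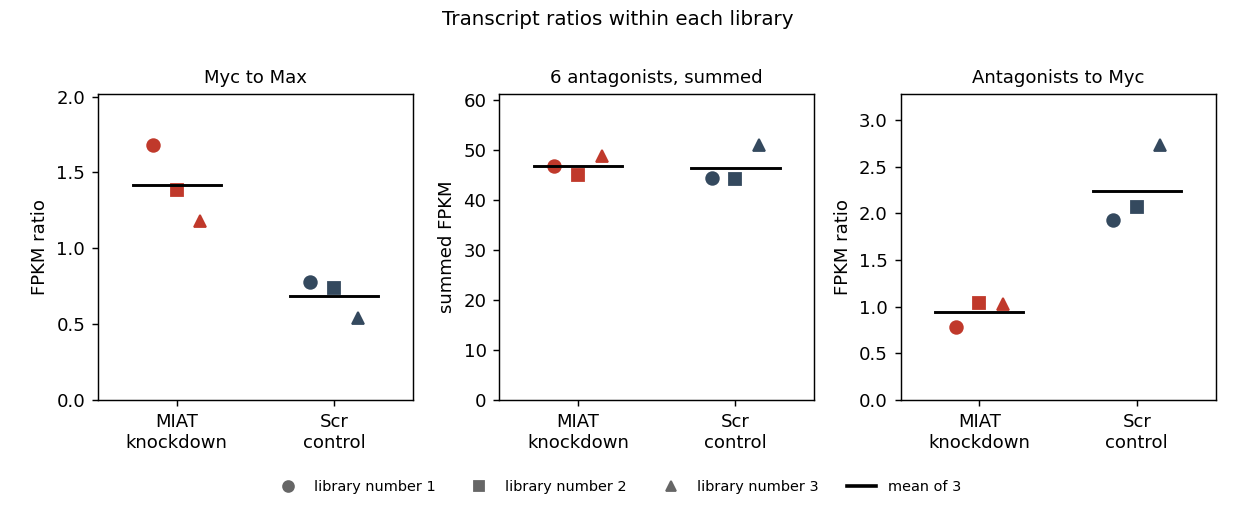
FPKM ratio of Myc to Max, summed FPKM of 6 antagonists (Mxd1, Mxd3, Mxd4, Mxi1, Mnt, Mga), and FPKM ratio of that sum to Myc, per library, with MIAT knockdown left of Scr control; symbols give the library number and black bars the mean of 3. Both ratios separate the groups, whereas the summed antagonists lie at 45.0 to 48.9 FPKM with knockdown and 44.2 to 51.1 FPKM in controls.

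Several members differed between the library numbers as much as between the groups. From library 1 to library 3 of the same group, the log2 difference in CPM of Mxd4 was 0.44 with knockdown and 0.55 in controls, that of Mxi1 0.34 and 0.44, that of Max 0.20 and 0.32 and that of Mxd3 0.24 and 0.24. In the other direction, that of Mxd1 was -0.26 with knockdown and -0.29 in controls, that of Myc -0.30 and -0.20 and that of Mga -0.43 and -0.15. These differences had the same sign in both groups for 8 of 10 members, the exceptions being Mnt (-0.0018 with knockdown and 0.61 in controls) and Mlx (0.02 and -0.06). The numbers carry no stated meaning in the labels. For Myc this spread was small beside the group difference of 1.15. For Max, Mxi1, Mxd1, Mxd3 and Mga it exceeded the group difference in size, in both groups. For Mxd4 it was about as large as the group difference of -0.45.

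**Figure D4:**
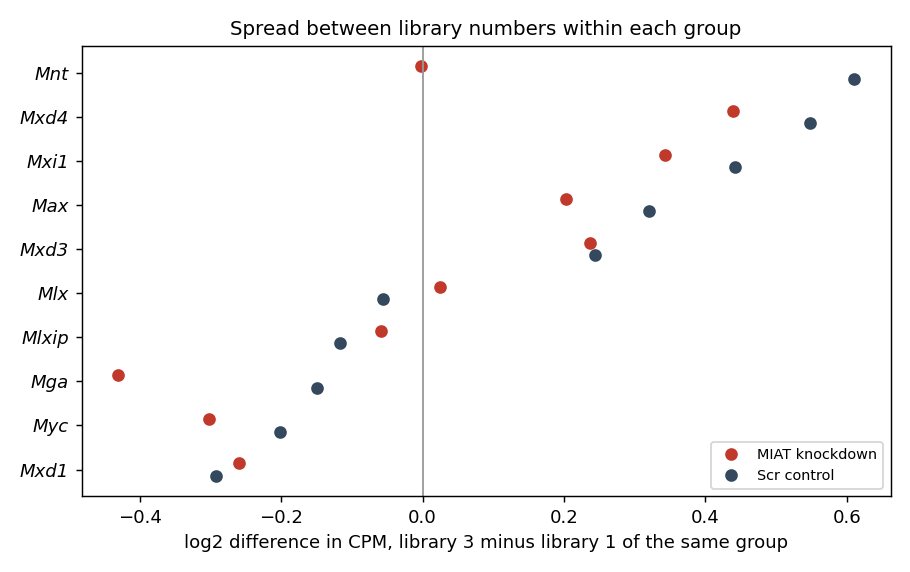
Log2 difference in TMM-scaled CPM between library 3 and library 1 of the same group for each member, MIAT knockdown in red above Scr control in dark blue. The 2 groups show the same sign for 8 of 10 members, with Mxd4 at 0.44 and 0.55 and Mxd1 at -0.26 and -0.29.

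Other genes were compared with Myc by the Pearson correlation of log2 CPM over the 6 libraries, among 1411 genes with a mean of at least 10 CPM and an SD of at least 0.3. The 5 most alike were Med4 (r = 0.995), a Mediator subunit, Exosc6 (0.995), an RNA exosome subunit, Alkbh1 (0.991), a nucleic acid demethylase, Phf23 (0.991) and Fsip1 (0.988). Exosc6 stood at 21.9 ± 4.36 CPM with knockdown and 8.37 ± 0.945 CPM in controls, and Alkbh1 at 56.5 ± 10.5 against 28.9 ± 3.02 CPM (SD, n = 3 each). The 3 most opposite were Nacc2 (-0.989), Slc39a6 (-0.987), a zinc transporter, and Itpr2 (-0.984), a calcium release channel at 15.6 ± 2.15 against 25.5 ± 0.687 CPM. These coefficients rest on 6 libraries in 2 groups and largely follow the group difference, so they are a description without a test.

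The Myc paralogs Mycl and Mycn were at much lower levels than Myc. Bmyc is also in the count table and was not examined. Mycl had a mean of 7.34 ± 1.68 CPM with knockdown and 7.54 ± 4.05 CPM in controls, and Mycn stood at 0.647 CPM with knockdown against 0.863 CPM in controls. Neither passed the test in either fit. Mlxipl, the paralog of Mlxip also called ChREBP, had 2 counts in control library 2 and 0 in the other libraries.

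Genes known to be activated by MYC were mostly higher with knockdown, by small amounts. Of 82 tested genes of this list, 40 rose, 1 fell and the remaining 41 missed the threshold in the block fit of edgeR, beside 10.5% of all tested genes that rose and 11.1% that fell. The median log2 fold change was 0.22, against -0.01 over all tested genes, and 70 of the 82 had a positive value. Without the block 0 passed, with 33 at an unadjusted p under 0.05. With pair 1 left out 19 rose, with pair 2 left out 11, and with pair 3 left out 47, while DESeq2 with the block called 19 higher. The list was written with earlier results of these data known, so it is not independent evidence of its direction.

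Ppan, a ribosome maturation factor, stood at 57.6, 46.2 and 61.2 CPM in knockdown libraries 1 to 3, against 31.5, 30.8 and 26.5 CPM in control libraries 1 to 3. The groups did not overlap, and Ppan rose by 0.89 on the log2 scale (SE 0.11, edgeR adjusted p = 0.00259 with the block, 0.104 without it). Rrs1, a ribosome assembly factor, stood at 32.0 ± 4.80 against 20.7 ± 2.94 CPM, and Gnl3, which encodes nucleostemin, at 117 ± 19.3 against 76.9 ± 9.13 CPM (SD, n = 3 each). Rrs1 rose by 0.63 and Gnl3 by 0.60 on the log2 scale, each above the controls in all 3 knockdown libraries. Ldha, the lactate dehydrogenase gene and the most abundant of the list, was at 1891 ± 325 against 1964 ± 282 CPM and did not pass. The gene that fell was Ccnd2, which encodes cyclin D2, with a log2 fold change of -0.35, a call that ended without pair 1 (-0.39), without pair 2 (-0.35), in DESeq2 (-0.36) and with total counts (-0.24). Odc1, a classic MYC target that makes polyamines, rose by 0.27, a call that ended without pair 1 (0.26) and without pair 2 (0.34). The values of Ccnd2 and Odc1 were seen before both were chosen.

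The CACGTG motif was found in 23 of the 71 genes of this list with a promoter window, or 32.4%, against 9.91% of tested genes. Of Ppan, Rrs1, Gnl3 and Ldha, a match was found for Gnl3 and Ldha, which differ in their change. No match was found for Ppan and Rrs1, and whether both have a window is not given. Whether Ccnd2 and Odc1 hold the motif is not given here. The 60 bases around it are at chr16:6219775-6219834 on the minus strand for Gnl3, with the motif 25 bases before the start, and at chr1:106507978-106508037 on the plus strand for Ldha, with the motif 87 bases before it.
Gnl3: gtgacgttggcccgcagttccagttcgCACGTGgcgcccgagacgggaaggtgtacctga
Ldha: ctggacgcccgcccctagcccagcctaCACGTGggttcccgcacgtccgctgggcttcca
Within the list, 11 of 23 genes with the motif rose (47.8%) and 24 of 48 without it (50.0%), and the medians were 0.19 and 0.23. Over all tested genes with a window, 155 of 1024 with the motif rose (15.1%) against 976 of 9311 without it (10.5%), and 9.28% against 11.3% fell. The medians were 0.01 with the motif and -0.01 without it. Windows with the motif also had a mean GC content of 62.0% against 60.6%. No test was made of these shares, and a match describes letters in a window, not binding.

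Genes that MYC is known to repress moved in both directions. Of 20 tested, 3 rose, 8 fell and the remaining 9 missed the threshold in the block fit, with a median of -0.04. That is 15% higher and 40% lower, beside 10.5% and 11.1% of all tested genes. Gadd45a, a growth arrest gene, stood at 156, 95.8 and 132 CPM in knockdown libraries 1 to 3, against 71.5, 45.0 and 68.7 CPM in control libraries 1 to 3. The groups did not overlap, and Gadd45a rose by 1.05 on the log2 scale (SE 0.061, edgeR adjusted p = 0.000361 with the block, 0.110 without it). Its paralog Gadd45b rose by 0.52 with overlapping groups. The other riser was Cebpd (0.34), chosen after its value was seen, whose call ended without pair 1 (0.27) and without pair 2 (0.36). Thbs1, which encodes thrombospondin 1 and was the most abundant of the list, fell to 14938 ± 800.4 CPM with knockdown, against 21244 ± 214 CPM in controls (SD, n = 3 each). Cdkn1a, which encodes the cell cycle inhibitor p21 and was also chosen after its value was seen, fell by 0.28 on the log2 scale, a call that ended without pair 2 (-0.26) and with total counts (-0.17). With total counts as scaling the list had 5 higher and 4 lower, beside 2822 and 819 of all tested genes, and its median was 0.07. The number past the threshold was 6 without pair 1, 3 without pair 2, and 7 in DESeq2 with the block and in the block fit with the length correction.

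Cofactors of MYC moved in both directions. Of 20 tested, 5 rose, 6 fell and the remaining 9 missed the threshold in the block fit, and the median was 0.09. The shares were 25% higher and 30% lower, beside 10.5% and 11.1% of all tested genes. Ccnt1 and Cdk9, the subunits of the elongation factor P-TEFb, rose by 0.53 and 0.35 on the log2 scale, and Ccnt1 stood at 52.6 ± 6.53 CPM with knockdown against 36.3 ± 2.38 CPM in controls. Pim1, a kinase, rose by 0.46, a call that ended without pair 1 (0.57), without pair 2 (0.51), without pair 3 (0.30), in DESeq2 (0.45) and with the length correction (0.37). Trrap, a scaffold of histone acetyltransferase complexes chosen after its value was seen, fell by 0.33, a call that ended without pair 2 (-0.35) and with the length correction (-0.13). Paf1, the most abundant, fell by 0.26, a call that ended without pair 1 (-0.20), without pair 2 (-0.23) and with total counts (-0.15). The number past the threshold was 4 without pair 1, 2 without pair 2 and 5 in DESeq2 with the block. With total counts 7 were higher and 1 lower, beside 2822 and 819 of all tested genes. With the length correction 3 were higher and 1 lower, beside 1280 and 1037.

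Among regulators of MYC protein turnover, of 17 tested, 8 rose, 1 fell and the remaining 8 missed the threshold in the block fit, and the median was 0.20. The shares were 47.1% higher and 5.88% lower, beside 10.5% and 11.1% of all tested genes. Skp2, a ubiquitin ligase subunit for MYC, rose by 0.70 on the log2 scale, at 10.8 ± 2.61 CPM with knockdown against 6.54 ± 0.427 CPM in controls. Cip2a, an inhibitor of the phosphatase that destabilises MYC, rose by 0.45, and so did the deubiquitinase gene Usp37. The gene that fell was Gsk3b, the kinase that marks MYC for degradation, with -0.23, chosen after its value was seen. Calls ended without pair 1 for Skp2 (0.59), Cip2a (0.38) and Gsk3b (-0.23), and without pair 2 for Skp2 (0.61), Cip2a (0.56), Usp37 (0.44) and Gsk3b (-0.30). That of Gsk3b also ended without pair 3 (-0.14), with total counts (-0.12) and with the length correction (-0.08). In DESeq2 with the block Cip2a (0.44) and Gsk3b (-0.24) missed the threshold. The number past the threshold was 2 without pair 1, 0 without pair 2 and 5 in DESeq2 with the block.

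Among proteins that bind MYC mRNA or its promoter, of 12 tested, 5 rose, 1 fell and the remaining 6 missed the threshold in the block fit, and the median was 0.27. The shares were 41.7% higher and 8.33% lower, beside 10.5% and 11.1% of all tested genes. Cnbp, a nucleic acid binding protein that acts on a promoter element of MYC in human cells, stood at 390.2 ± 15.7 CPM with knockdown against 298 ± 8.48 CPM in controls and rose by 0.39 on the log2 scale, without overlap of the groups. Fubp1, a far-upstream element binding protein, rose by 0.33 and Igf2bp2, an mRNA binding protein, by 0.36. Without pair 1 the calls of Fubp1 (0.22) and Igf2bp2 (0.37) ended, as they did without pair 2 (0.38 and 0.42) and, for Igf2bp2, without pair 3 (0.28) and in DESeq2 (0.35). The gene that fell was Zfp36l1, an mRNA decay factor chosen after its value was seen, with -0.19, a call that ended without pair 1 (-0.22), without pair 2 (-0.20), in DESeq2 (-0.20), with total counts (-0.08) and with the length correction (-0.21). The number past the threshold was 1 without pair 1 and 1 without pair 2.

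The SIN3 corepressors are what the MXD proteins and MNT recruit. Of 17 tested genes of the SIN3 and histone deacetylase corepressors, 2 rose, 3 fell and the remaining 12 missed the threshold in the block fit, and the median was 0.03. The shares, 11.8% higher and 17.6% lower, stood beside 10.5% and 11.1% of all tested genes. Sap130 (-0.32), Ncor1 (-0.26) and Sin3a (-0.21), the last chosen after its value was seen, fell and Sap18 (0.25) rose, and none of these calls held without pair 1 or without pair 2, where 0 of the 17 passed. With pair 3 left out, 4 were higher and 4 lower, beside 1924 and 2200 of all tested genes. With total counts 5 were higher and 0 lower, beside 2822 and 819 of all tested genes. In DESeq2 with the block 1 passed, as did 1 with the length correction. Rbbp7, the most abundant, was at 247 ± 13.3 CPM with knockdown against 227 ± 21.8 CPM in controls and did not pass.

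Of 13 tested genes of PRC1.6, the complex of MGA and MAX, 4 rose, 0 fell and the remaining 9 missed the threshold in the block fit, and the median was 0.15. The shares were 30.8% higher and 0% lower, beside 10.5% and 11.1% of all tested genes. Yaf2 (0.36), Cbx3 (0.35) and Tfdp1 (0.32) rose, while Hdac1, the most abundant, was at 160.1 ± 6.20 CPM with knockdown against 157 ± 3.77 CPM in controls and did not pass. Cbx3 is also on the list of MYC-activated genes and is counted on both lists. Hdac1 is likewise counted here and among the SIN3 and histone deacetylase corepressors. Without pair 1 the calls of Cbx3 (0.29) and Tfdp1 (0.31) ended, and without pair 2 those of Yaf2 (0.31) and Cbx3 (0.32). Only 1 gene passed with pair 1 left out and 1 with pair 2 left out, against 8 with total counts. Total counts gave 2822 higher and 819 lower among all tested genes.

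Of 5 tested targets of MLXIP and MLX, 2 rose, 0 fell and the remaining 3 missed the threshold in the block fit. With so few genes this is 40% higher and 0% lower, beside 10.5% and 11.1% of all tested genes, and the median was 0.14. Klf10, a transcription factor, rose by 0.54 and Arrdc4, an arrestin-domain gene, by 0.36 on the log2 scale, and the call of Arrdc4 ended without pair 1 (0.30) and without pair 2 (0.34). Txnip, a well-known MondoA target and the most abundant here, was at 190.0, 194 and 166 CPM in knockdown libraries 1 to 3, against 166, 153 and 179 CPM in control libraries 1 to 3. Without pair 1 or pair 2 the list had 1 riser, and with pair 3 left out 3 higher and 1 lower. The groups overlapped for Txnip, which did not pass (log2 fold change 0.14, edgeR adjusted p = 0.250 with the block).

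Of 14 tested bHLH factors of other families that also bind E-boxes, 3 rose, 1 fell and the remaining 10 missed the threshold in the block fit, and the median was 0.11. The shares were 21.4% higher and 7.14% lower, beside 10.5% and 11.1% of all tested genes. Bhlhe41, a clock-linked repressor, stood at 48.7, 30.2 and 39.2 CPM in knockdown libraries 1 to 3, against 28.9, 18.0 and 13.0 CPM in control libraries 1 to 3. Its groups did not overlap, and it rose by 1.01 on the log2 scale (SE 0.15, edgeR adjusted p = 0.00428 with the block, 0.162 without it). Its paralog Bhlhe40, the most abundant, rose by 0.33. Tfap4, also on the list of MYC-activated genes and chosen after its value was seen, rose by 0.97 at a low level of 6.50 ± 2.06 CPM with knockdown against 3.24 ± 0.449 CPM in controls, a call that ended without pair 1 (0.94). Srebf1, a regulator of lipid synthesis, fell by 0.28, a call that ended without pair 1 (-0.29), without pair 2 (-0.30), in DESeq2 (-0.29), with total counts (-0.17) and with the length correction (-0.24). The number past the threshold was 2 without pair 1 and 7 without pair 3. With total counts 5 were higher and 0 lower, beside 2822 and 819 of all tested genes.

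**Figure D5:**
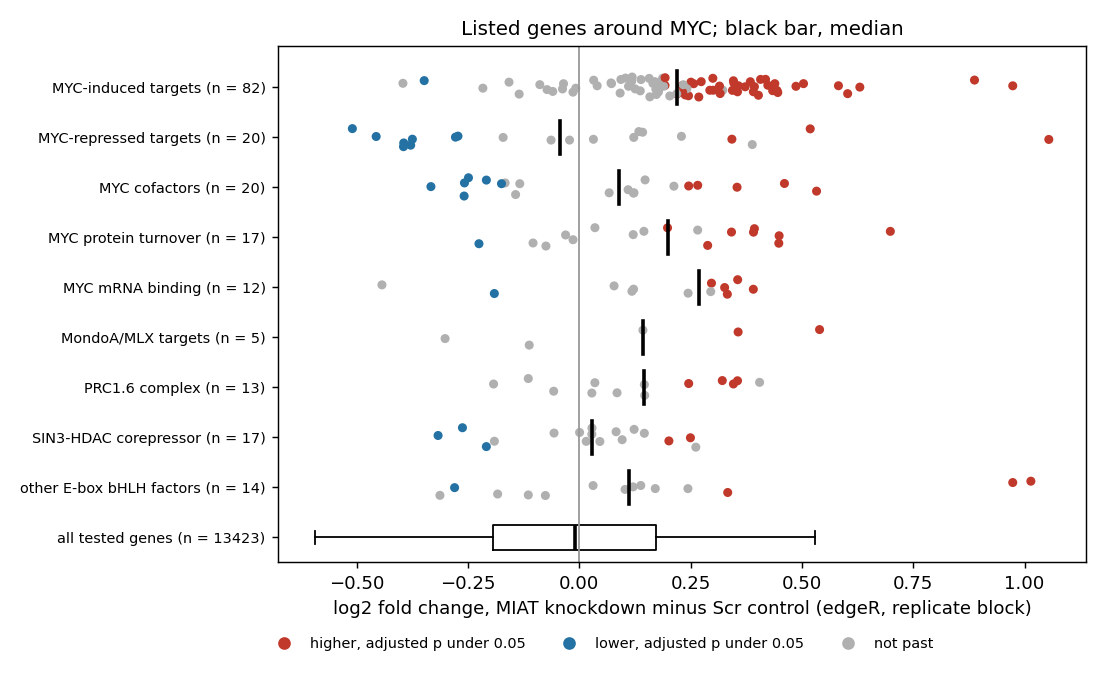
Log2 fold change, MIAT knockdown minus Scr control, of every tested gene on 9 lists (edgeR with the library number as a block); red, blue and grey points are genes higher, lower or not past an adjusted p of 0.05, and black bars are list medians. For all 13423 tested genes the box spans the quartiles and the whiskers the 5th to 95th percentiles; the MYC-activated list has a median of 0.22 against -0.01 for all genes.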

How the data were processed

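Gene-level counts, unnormalized, and FPKM are the values the authors deposited. Each FPKM above 0 was checked against count over gene length over library total, and 100% matched within a relative tolerance of 1e-06. No source used here names the aligner, the read counter, the build or whether strand was used. RefSeq (GRCr8) matched 16598 of 18631 symbols.

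Counts were filtered with filterByExpr and scaled with TMM in edgeR 4.0.16 (R 4.3.3), and MIAT knockdown was compared with Scr control by edgeR's quasi-likelihood test with Benjamini-Hochberg adjustment over 13423 genes at 0.05. After removal of group means, same-numbered libraries correlated across genes at 0.70, 0.57 and 0.63, each over the minimum of 0.1, so the numbers were taken as pairs; the labels state no pairing. The fit set as the main one had no block. The words rose and fell refer to the fit with the library number as a block. The biological coefficient of variation stood at 8.09% (2 residual degrees of freedom) in that fit and 19.7% (4) without the block. Alternatives used DESeq2 1.42.0, limma 3.58.1 (voom, and log2(FPKM + 1) or log2(FPKM + 0.1)), other scalings and filters, a loess correction for gene length (span 0.5), and fits without single libraries or pairs. The fits were also run on simulated data. Those data had less spread than the unblocked fit found here and larger changes than most genes had here. They do not show how well small changes were found.

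Members and lists were chosen with earlier results of these data known. The text names all members, per list up to 3 genes past the threshold with the largest changes in size at a mean of at least 5 CPM plus the most abundant by FPKM, and the genes most like or opposite to Myc. A gene that this rule names is not reported here. Protein sequences were not used here. With 3 libraries per group, precision is limited by the spread between them.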

Additional observations from a re-analysis of the deposited data

How the results depend on the processing

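The log2 fold change of Myc was positive in all 22 fits, from 1.02 to 1.24 without single libraries. That of Mxd4 was negative in all 22, from -0.59 to -0.25 without single libraries. Max, Mxd1, Mxd3, Mxi1 and Mlx changed sign in 1, 1, 3, 1 and 1 of the fits, all with values near 0. Total counts in place of TMM moved the median of all genes by 0.107 on the log2 scale, and deposited FPKM carry the same shift; no member changed sign with it. Unblocked edgeR called 0 genes, 0 members and 0 genes of the MYC-activated list. It also called 0 under every other unblocked scaling, filter or left-out library, as did limma. With the replicate block the counts were 2898 genes, 3 members, and 40 higher and 1 lower on that list. They were 699 genes, 1 member and 12 higher in unblocked DESeq2, and 1590, 2 and 19 in DESeq2 with the block. Block fits gave 3641, 3 and 58 with total counts, and 2317, 3 and 33 (1 lower) with the length correction. Without pair 1, 2 or 3 the block gave 1195, 736 and 4124 genes, 2 to 5 members and 11 to 47 higher list genes (0 to 1 lower), with list medians of 0.19 to 0.26. The list median was 0.21 without the block, 0.31 with log2(FPKM + 1), 0.33 with log2(FPKM + 0.1) and 0.32 with total counts. With the block it was 0.33 with total counts and 0.18 with the length correction. The median of all tested genes in those fits was, in the same order, -0.01, 0.07, 0.10, 0.09, 0.10 and -0.0032. The higher list medians with FPKM and total counts thus include the shift of all genes. The cause of the other differences between fits was not tested, beyond the fewer libraries where a pair was left out.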
